A study of Homo sapiens with 4 samples.

Results

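The 9 genes described here encode apolipoproteins, the proteins that coat lipoprotein particles: APOA1, APOA2, APOA4, APOB, APOC1, APOC3, APOE, APOH and APOM. They are 9 of the 58365 rows of the deposited expression table, taken by gene symbol, with 1 row for each symbol. The genes were selected on their difference between SB-treated and DMSO-treated cells, so that difference is given for them as a description, with values and errors and with no test.

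RNA-seq was performed on the established hESC (human embryonic stem cell) line H1 at day 8 of hematopoietic differentiation. All cells received activinA (40 ng/ml) and BMP4 (50 ng/ml) for 2 days, followed by VEGF (40 ng/ml) and bFGF (50 ng/ml) for 3 days, and were then cultured for 3 more days with either DMSO, the solvent, or SB431542 (SB), an inhibitor of the TGFβ type I receptors. The 4 libraries were DMSO replicates 1 and 2 and SB replicates 1 and 2. The study was set up to ask how TGFβ signaling acts on the emergence of blood cells from endothelium, and it describes sequencing CD31-positive cells, a selection that the sample labels do not mention. PECAM1, the gene of CD31, was measured at 197 and 163 FPKM (fragments per kilobase, relative to all fragments of the library) with DMSO and at 182 and 153 FPKM with SB. The steps between the lowest values placed the number of fragments behind a library between 19700000 in SB replicate 1 and 26000000 in SB replicate 2. The study speaks of independent experiments for its analyses in general, but neither it nor the labels say so of these libraries, so p-values measure the spread between these samples, which may be technical.

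Apolipoproteins hold lipoprotein particles together, bind the receptors that take particles up, and switch the enzymes that act on them on or off. The liver and the intestine make most of them in the adult, and the visceral endoderm of the yolk sac makes many of them in the embryo. APOE and APOC1 are also made by macrophages and other cells outside the liver. APOA1, APOC3 and APOA4 lie next to each other in 1 gene cluster on chromosome 11, and APOE and APOC1 lie in another on chromosome 19.

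The promoters of 6 of the 9 genes (APOA2, APOA4, APOC1, APOE, APOH and APOM) were found in the RefSeq promoter table on GRCh38.p14. APOA2 and APOA4 are shown because they were the 2 windows with a motif of a liver factor, printed in capitals along with a 5-base SMAD box, CAGAC. That choice followed the search, and both genes were picked on the SB contrast. A SMAD box was in 5 of the 6 windows, all but that of APOM, and so also in those of APOE, whose groups overlapped, and APOH, listed at 0 in every library. The sequences give the 200 bases before the start, 5′ to 3′ on the strand of the gene, at chr1:161223629-161223828 (minus strand) for APOA2 and at chr11:116823305-116823504 (minus strand) for APOA4.
APOA2: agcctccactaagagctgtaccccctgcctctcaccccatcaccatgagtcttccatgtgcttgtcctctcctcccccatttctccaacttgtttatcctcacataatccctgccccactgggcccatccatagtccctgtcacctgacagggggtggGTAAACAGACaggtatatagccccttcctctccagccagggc
APOA4: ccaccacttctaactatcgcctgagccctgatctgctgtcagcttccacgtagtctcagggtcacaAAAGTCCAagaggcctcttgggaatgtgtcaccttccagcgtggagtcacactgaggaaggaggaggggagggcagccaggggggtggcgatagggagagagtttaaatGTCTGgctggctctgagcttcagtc
In APOA2 the capitals mark a forkhead motif, GTAAACA, from base 42 to base 36 before the start, which overlaps a SMAD box from base 37 to base 33. In APOA4 they mark an HNF4 motif, AAAGTCCA, from base 134 to base 127, and a SMAD box on the opposite strand, written GTCTG, from base 25 to base 21. Over all 35116 promoter windows of 250 bases, searched on both strands, AAAGTCCA was found in 0.980%, GTAAACA in 2.98% and CAGAC in 38.0%. The GATA motif GATAAG (5.65% of all windows), the nuclear receptor motif AGGTCA (12.1%) and the TATA motif TATAAA (10.7%) were in none of the 6 windows. These matches describe the letters of the windows and are not binding sites.

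The genes spanned a wide range of levels in DMSO-treated cells, from 431 FPKM on average for APOE to APOH, which was listed at 0 in every library. With SB, APOA1 and APOA2 were lower by 18.0-fold and 8.00-fold in the ratio of the group means, and APOA4 and APOC3 were listed at 0. APOE, the most abundant of them, was 1.29-fold lower, and its groups overlapped. Both SB libraries lay below both DMSO libraries for 7 of the 9 genes, the exceptions being APOE and APOH. Over all 14909 genes tested, 16% had both SB libraries below both DMSO libraries and 21.5% had both above, but the rule that chose these genes used the same contrast and nothing is read from the comparison.

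**Figure D1:**
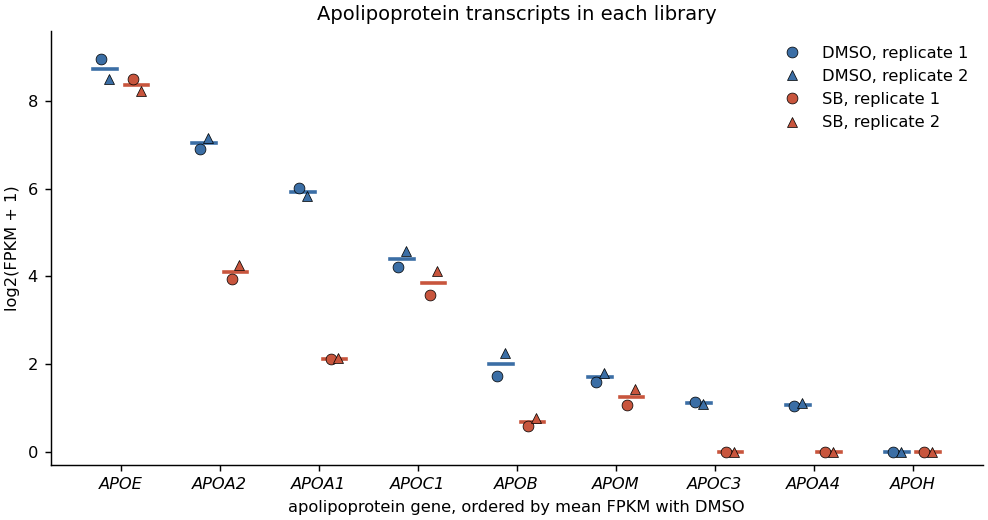
Level of each apolipoprotein gene, as log2(FPKM + 1), in the 4 libraries (circles, replicate 1; triangles, replicate 2; bars, mean of the group on the log2 scale; blue, DMSO; red, SB). APOA1 and APOA2 stand well below their DMSO level with SB, while the groups of APOE overlap.

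APOA1 (ENSG00000118137.9, chr11:116835751-116837950, GRCh38, minus strand) encodes the main protein of high-density lipoprotein (HDL) and activates LCAT, the enzyme that esterifies cholesterol on that particle. It stood at 64.2 and 56.3 FPKM with DMSO and at 3.31 and 3.39 FPKM with SB. The replicates of each group lay close together and the groups far apart. The mean was 60.3 ± 5.55 FPKM (SD, n = 2) with DMSO and 3.35 ± 0.0531 (SD, n = 2) with SB, a log2 fold change of -3.81 (SE 0.17) on the log2(FPKM + 1) scale, on which all fold changes below are given. Of the 14909 tested genes 5 had a lower log2 fold change, but this rank is on the contrast that chose the genes and nothing is read from it. Within the replicate numbers APOA1 was 94.8% lower for replicate 1 and 94.0% lower for replicate 2. The antisense gene APOA1-AS shares 1834 bases with APOA1, and strand use in counting is not stated, but that gene stood at 0.142 and 0.154 FPKM with DMSO and was listed at 0 with SB.

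APOA2 (ENSG00000158874.11, chr1:161222292-161223631, minus strand), the other major HDL protein, stood at 120 and 141 FPKM with DMSO and at 14.5 and 18.2 FPKM with SB. Both SB libraries were far below both DMSO libraries. The means were 131 ± 15.1 and 16.3 ± 2.66 FPKM (SD, n = 2 each), with a log2 fold change of -2.93 (SE 0.20). The 2 HDL proteins did not keep the same ratio. APOA1 was present at 0.535 and 0.398 of the level of APOA2 with DMSO and at 0.229 and 0.186 with SB, so the ratio was lower in both SB libraries.

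APOA4 (ENSG00000110244.6, chr11:116820700-116823306, minus strand), a protein of intestinal particles and HDL, stood at 1.07 and 1.15 FPKM with DMSO and was listed at 0 in both SB libraries. APOC3 (ENSG00000110245.11, chr11:116829706-116833072, plus strand), which inhibits lipoprotein lipase and slows the uptake of remnant particles, stood at 1.19 and 1.13 FPKM with DMSO and was likewise listed at 0 with SB. These are low levels. For APOA4, which has 1 annotated transcript, the DMSO values corresponded to about 31.0 and 32.0 fragments, and 1 fragment would have been worth 0.0428 FPKM in SB replicate 1 and 0.0324 FPKM in SB replicate 2. For APOC3 they corresponded to about 9.61 and 8.45 fragments if all came from its longest transcript. No fold is given against a group listed at 0. For a gene listed at 0 in all 4 libraries, such as APOH, the 0 need not mean that no fragment was there. CD99, a surface protein of most cells, was listed at 0 in all 4 libraries. It was the only 1 of 20 everyday genes looked up with such a 0. Whether the reason for its 0 also applies to APOH was not tested. APOA4 and APOC3 were counted with DMSO, so CD99 is no guide to their 0 with SB.

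APOB (ENSG00000084674.14, chr2:21001429-21044073, minus strand) encodes the large structural protein of very low and low density lipoprotein, the scaffold on which such a particle is built. It stood at 2.30 and 3.79 FPKM with DMSO and at 0.492 and 0.712 FPKM with SB. The SB libraries lay below the DMSO libraries, which differed between themselves more than those of APOA1. The log2 fold change was -1.31 (SE 0.27), and the level was 78.6% lower for replicate 1 and 81.2% lower for replicate 2. APOB, APOA4 and APOC3 passed the filter on low values only through their DMSO level, which is a mean of at least 1 FPKM in at least 1 group.

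APOE (ENSG00000130203.9, chr19:44905754-44909393, plus strand), a ligand of the LDL receptor family, stood at 501 and 361 FPKM with DMSO and at 365 and 302 FPKM with SB. The value in SB replicate 1 lay between those of the 2 DMSO libraries. The means were 431 ± 99.3 and 334 ± 44.3 FPKM (SD, n = 2 each), with a log2 fold change of -0.36 (SE 0.23), which went to -0.12 without DMSO replicate 1 and to -0.59 without DMSO replicate 2. The longest transcript of APOE has a GC content of 68.5%, and with a correction for GC content, added after the data were seen, its log2 fold change was -0.22. In both groups replicate 1 had the higher APOE level.

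APOC1 (ENSG00000130208.9, chr19:44914247-44919349, plus strand), a small protein that slows the uptake of particles by receptors, stood at 17.5 and 22.8 FPKM with DMSO and at 10.8 and 16.4 FPKM with SB. The groups did not overlap, but the gap between them was narrower than the spread within each. The log2 fold change was -0.55 (SE 0.26), and it moved to -0.27 without SB replicate 1 and to -0.83 without SB replicate 2. APOC1 has a near-copy next to it, the pseudogene APOC1P1, so the division of reads between them is uncertain. APOC1P1 was listed at 0.143 and 0 FPKM with DMSO and at 0.370 and 1.78 FPKM with SB, higher where APOC1 was lower. The effect of that division on the APOC1 values was not tested. The APOE level was 28.6 and 15.8 times that of APOC1 with DMSO and 33.6 and 18.4 times with SB, a ratio that followed the replicate number more than the treatment.

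APOM (ENSG00000204444.10, chr6:31652416-31658210, plus strand), the HDL protein that carries sphingosine-1-phosphate, a lipid signal to endothelial cells, stood at 2.00 and 2.49 FPKM with DMSO and at 1.08 and 1.69 FPKM with SB. The groups did not overlap. The log2 fold change was -0.45 (SE 0.24), and -0.27 without SB replicate 1. APOM shares 290 bases with BAG6 on the other strand, which was far more abundant, at 198 and 144 FPKM with DMSO and at 191 and 130 FPKM with SB. APOH (ENSG00000091583.10, chr17:66212033-66256525, minus strand), a plasma protein that binds phospholipids, was listed at 0 in all 4 libraries and failed the filter.

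The order of levels per length differed between the groups. With DMSO it ran APOE, APOA2, APOA1, APOC1, APOB, APOM, APOC3, APOA4 and APOH, and the neighbours APOB and APOM, and APOC3 and APOA4, overlapped. With SB it ran APOE, APOA2, APOC1, APOA1, APOM and APOB, with the other 3 genes listed at 0, and APOA2 and APOC1 overlapped. APOA1 thus stood above APOC1 in both DMSO libraries and below it in both SB libraries.

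The summed FPKM of the 9 genes was 710 and 590 with DMSO and 395 and 343 with SB. Both SB sums lay below both DMSO sums, with means of 650 ± 84.6 and 369 ± 37.1 (SD, n = 2 each). Most of the sum was APOE, which made up 70.6% and 61.2% of it with DMSO and 92.4% and 88.2% with SB. APOA2 made up 16.9% and 24.0% of the sum with DMSO, and 3.66% and 5.32% with SB. Without APOE the sums were 208 and 229 with DMSO and 30.2 and 40.5 with SB, a 6.19-fold ratio of the means against 1.76-fold with APOE. Less RNA per cell and fewer cells of an expressing type cannot be told apart in bulk samples.

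**Figure D2:**
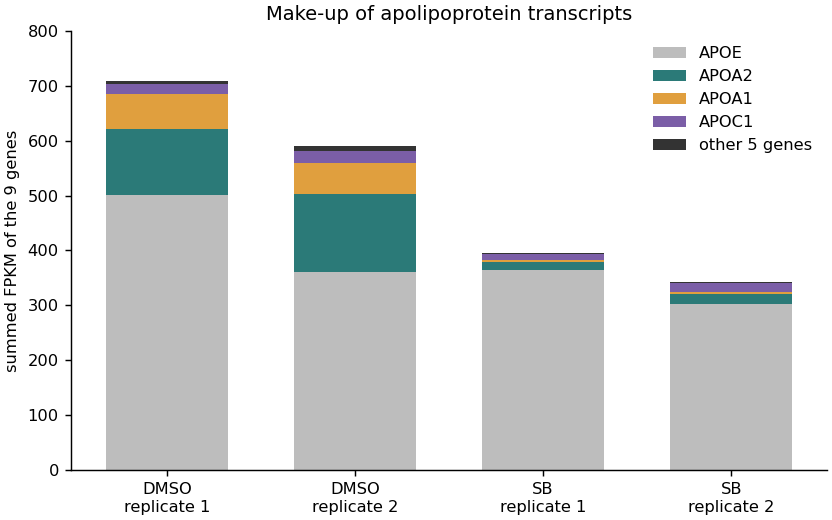
Summed FPKM of the 9 genes in each library, stacked by gene. APOE fills 70.6% and 61.2% of the DMSO bars and 92.4% and 88.2% of the SB bars, where APOA1 and APOA2 are thin bands.

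The genes that were most like the apolipoproteins in their level across the 4 libraries were looked up for the 3 most abundant members, by the Euclidean distance between centred log2(FPKM + 1) values. This measure uses both groups, so a gene near APOA1 or APOA2 is one with a similar difference between them. Nearest to APOA2 were ACTC1 (distance 0.136), which encodes cardiac actin, GNRH2 (0.216) and TTR (0.235), the plasma carrier of thyroid hormone. Nearest to APOA1 were the processed pseudogene AL591623.2 (0.345), SOST (0.354), which encodes a secreted BMP and WNT antagonist, and LCN15 (0.377), which encodes a lipocalin. ACTC1, GNRH2 and AL591623.2 passed the filter on low values only through DMSO. With SB, ACTC1 stood at 0.519 and 0.677 FPKM and GNRH2 at 0.724 and 1.18 FPKM, and AL591623.2 was listed at 0. Nearest to APOE were POLD4 (0.029), a DNA polymerase subunit, SDCBP2 (0.033) and SMIM10L2A (0.036). Between the members themselves, APOA4 and APOC3 (0.0745) and APOC1 and APOM (0.190) lay close, and APOA1 and APOA2 (0.954) lay farther apart. APOA4 and APOC3 were both low with DMSO and listed at 0 with SB. Their small distance therefore reflects similar low DMSO levels and the pseudocount.

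Other secreted proteins of liver and yolk sac endoderm were compared in the same fit, limma over all 14909 genes with Benjamini-Hochberg adjustment. In that fit 16 genes were called lower (0.107% of those tested) and 4 higher (0.0268%), at an adjusted p under 0.05, while 1485 genes had an unadjusted p under 0.05. The list was drawn up with earlier results of these data known, so it is not independent evidence of a direction. Of the 16 listed proteins 9 passed the filter, and 2 were called lower, AFP and TTR. FGA, FGB, SERPINA1, RBP4 and VTN passed only through their DMSO level and HPX only through SB, which leaves 3 proteins that passed in both groups, AFP, TTR and TF.

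AFP, the fetal counterpart of albumin, fell from 43.5 and 54.2 FPKM to 3.45 and 3.05 FPKM (log2 fold change -3.55, SE 0.19, limma adjusted p 0.0232). TTR fell from 45.0 and 57.9 FPKM to 5.45 and 5.55 FPKM (log2 fold change -3.00, SE 0.19, limma adjusted p 0.0353). Neither call held in any of the 4 fits that left out 1 library, where the limma adjusted p was 0.0759 to 0.157 for AFP and 0.0984 to 0.171 for TTR, and neither held without a filter on low values, where it was 0.300 for both. Over all 13 alternatives it ran from 0.00225 to 0.300 for either gene. TF stood at 1.18 and 1.78 FPKM with DMSO and at 1.01 and 1.32 FPKM with SB, where the groups overlapped (log2 fold change -0.19, limma adjusted p 0.899). HPX stood at 0.683 and 0.993 FPKM with DMSO and was higher with SB, at 1.02 and 1.10 FPKM (0.17, limma adjusted p 0.910). SERPINA1, the main inhibitor of neutrophil elastase, stood at 4.49 and 6.78 FPKM with DMSO and at 0.424 and 0.705 FPKM with SB (log2 fold change -2.07, limma adjusted p 0.0969). ALB, the major adult plasma protein, did not pass the filter, with 0.233 and 0.481 FPKM with DMSO and 0.119 and 0.272 FPKM with SB. HP was at 0.015 FPKM in DMSO replicate 1 and listed at 0 in the other 3 libraries.

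The summed FPKM of the 16 proteins was 112 and 139 with DMSO and 14.7 and 14.3 with SB. The apolipoproteins did not all keep their ratio to these proteins. APOA1 stood at 1.48 and 1.04 times the level of AFP with DMSO and at 0.960 and 1.11 times with SB, where the groups overlapped. APOA2 stood at 2.76 and 2.61 times the level of AFP with DMSO and at 4.19 and 5.98 times with SB, but its ratio to TTR overlapped, at 2.67 and 2.44 with DMSO and at 2.66 and 3.28 with SB. APOB had 0.0529 and 0.0699 of the level of AFP with DMSO and 0.143 and 0.234 with SB. The APOA1 to TTR ratio was 1.43 and 0.973 with DMSO and 0.608 and 0.611 with SB. APOE relative to PECAM1 was 2.54 and 2.21 with DMSO and 2.01 and 1.98 with SB.

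**Figure D3:**
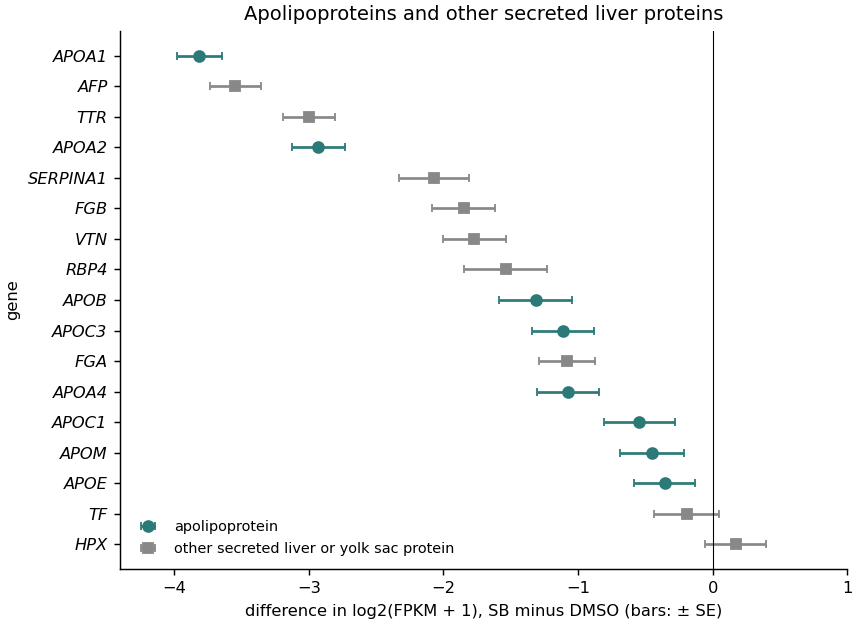
Difference in log2(FPKM + 1), SB minus DMSO, with its SE, for the 8 apolipoproteins that passed the filter (green circles) and 9 other secreted proteins of liver or yolk sac endoderm (grey squares). APOA4, APOB, APOC3, FGA, FGB, SERPINA1, RBP4 and VTN passed only through DMSO and HPX only through SB. APOA1, AFP, TTR and APOA2 lie at -3.81 to -2.93, and APOC1, APOM and APOE lie nearer to 0.

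Markers of other cell types were read beside these values, and none of them was called by limma. Macrophage markers summed to 89.6 and 108 FPKM with DMSO and to 215 and 250 FPKM with SB, with 6 of the 10 tested, 4 of them higher at an unadjusted p under 0.05 and 0 called. CSF1R, the receptor of a macrophage growth factor, had a log2 fold change of 2.14 (limma adjusted p 0.0753), and TYROBP 1.31 (limma adjusted p 0.0948), and the macrophage complement genes C1QA, C1QB and C1QC were near 0. Epithelial markers summed to 255 and 251 FPKM with DMSO and to 116 and 124 FPKM with SB, and all 6 were lower at an unadjusted p under 0.05 with 0 called, among them KRT19 (log2 fold change -2.06, limma adjusted p 0.0807) and EPCAM (-1.40, limma adjusted p 0.161). Mesenchymal markers summed to 288 and 244 FPKM with DMSO and to 113 and 111 FPKM with SB. Of the 7 listed 6 were tested, 5 of them lower at an unadjusted p under 0.05 and 0 called, among them COL1A1 (-2.46, limma adjusted p 0.0646). Endothelial markers summed to 1630 and 1468 FPKM with DMSO and to 1490 and 1370 FPKM with SB. Blood markers summed to 296 and 259 FPKM with DMSO and to 463 and 401 FPKM with SB, with 5 of 6 tested and 4 of them higher at an unadjusted p under 0.05. Pluripotency markers summed to 69.8 and 89.3 FPKM with DMSO and to 93.6 and 114 FPKM with SB, with 3 of 5 tested and 2 of them higher at that p. Of 8 enterocyte markers 1 was tested, VIL1, which passed the filter only through DMSO (log2 fold change -1.30, limma adjusted p 0.218), and SI and FABP2 were listed at 0. The part of these cell types in the apolipoprotein levels was not tested.

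The remaining genes of lipoprotein biology were taken from lists written from general knowledge of the pathway, with earlier results of these data known. None of their 55 tested genes was called in either direction. Over all genes tested 0.134% were called and 9.96% had an unadjusted p under 0.05, so 0 calls is near that share. Of 16 other apolipoproteins and genes named after them 5 were tested and 4 were listed at 0 throughout, and the median log2 fold change of the tested genes was 0.09. APOLD1, an endothelial gene named for its likeness to apolipoprotein L, stood at 3.35 and 3.24 FPKM with DMSO and at 5.07 and 6.36 FPKM with SB (log2 fold change 0.64, limma adjusted p 0.381), and was the 1 gene of the list with an unadjusted p under 0.05. APOL2 and CLU had log2 fold changes of 0.24 and -0.22 (limma adjusted p 0.798 and 0.820).

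For the machinery that loads APOB with lipid and carries the particle out of the cell, 7 of 11 listed genes were tested, 10 being matched in the table, and the median log2 fold change was -0.11, beside 0.04 over all genes tested. MTTP, which transfers lipid onto APOB, stood at 0.909 and 1.10 FPKM with DMSO and at 0.175 and 0.318 FPKM with SB. Its log2 fold change was -0.69 (limma adjusted p 0.453). It passed the filter only through DMSO, and it was the 1 gene of the list with an unadjusted p under 0.05. MIA3 and SAR1B, which act in the export of large cargo, had log2 fold changes of -0.29 and 0.20 (limma adjusted p 0.801 and 0.870).

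Of the receptors, 11 of 15 were tested and their median log2 fold change was -0.03. An unadjusted p under 0.05 was found for 3 of them, 2 lower and 1 higher. LRP1, a receptor that takes up APOE-bearing remnants, stood at 23.1 and 15.6 FPKM with DMSO and at 6.89 and 5.57 FPKM with SB (log2 fold change -1.47, limma adjusted p 0.167). SORL1 and LRP8, which also bind APOE, had log2 fold changes of -0.70 and 0.58 (limma adjusted p 0.330 and 0.460).

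Among lipases and lipid transfer proteins 13 of 20 were tested, with a median of -0.18, and 5 had an unadjusted p under 0.05, 4 lower and 1 higher. ANGPTL4, an inhibitor of lipoprotein lipase, stood at 21.4 and 20.5 FPKM with DMSO and at 7.02 and 6.92 FPKM with SB (log2 fold change -1.46, limma adjusted p 0.0803). LIPG, the endothelial lipase that acts on HDL, stood at 60.4 and 55.9 FPKM with DMSO and at 23.3 and 20.0 FPKM with SB (log2 fold change -1.39, limma adjusted p 0.0969). GPIHBP1, which anchors lipoprotein lipase to capillaries, had a log2 fold change of -0.89 (limma adjusted p 0.457). The higher gene was PLTP, at 58.2 and 54.8 FPKM with DMSO and at 75.4 and 74.2 FPKM with SB (0.40, limma adjusted p 0.501).

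Of the transcription factors of liver and gut 19 of 28 were tested, 4 of them through DMSO alone, and their median log2 fold change was -0.06. An unadjusted p under 0.05 was found for 4 of them, 3 lower and 1 higher, and HNF4A and FOXA2 are among the genes tested through DMSO alone. The higher gene was NR2F2, at 12.4 and 7.05 FPKM with DMSO and at 20.1 and 16.2 FPKM with SB (log2 fold change 0.87, limma adjusted p 0.450). HNF4A, a nuclear receptor of liver and gut endoderm, stood at 1.52 and 0.673 FPKM with DMSO and at 0.172 and 0.0516 FPKM with SB (log2 fold change -0.89, limma adjusted p 0.449). GATA4 and FOXA2, factors of early endoderm among other tissues, had log2 fold changes of -1.77 and -1.17 (limma adjusted p 0.187 and 0.291).

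**Figure D4:**
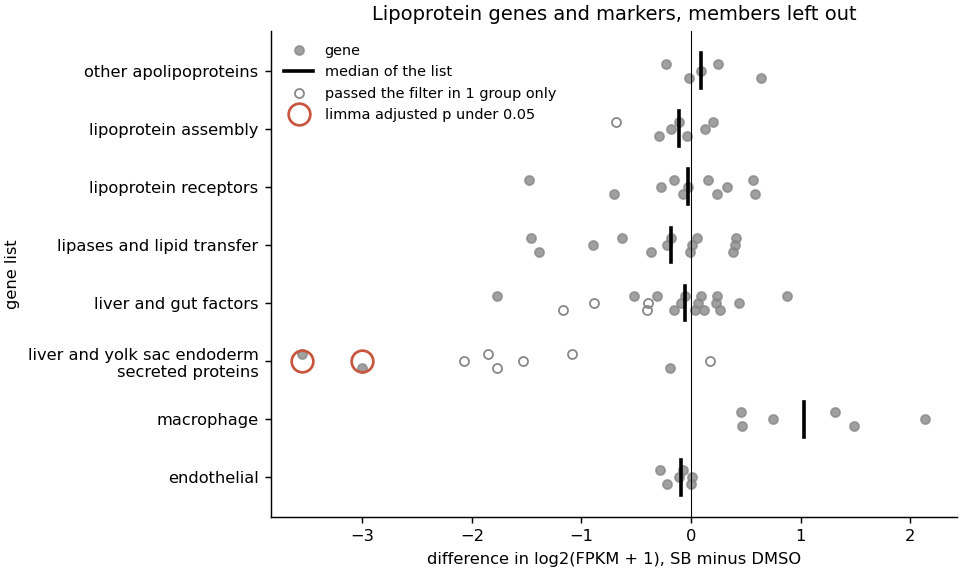
Difference in log2(FPKM + 1), SB minus DMSO, for each tested gene of the lists, with the list's median as a black bar (not drawn where most genes passed the filter in 1 group only; these are open circles) and a red ring around the genes at a limma adjusted p under 0.05. AFP and TTR carry the 2 rings, and the medians of the lipoprotein lists lie between -0.18 and 0.09.

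Genes beside the apolipoproteins were read next, because members of a cluster share their surroundings. Of the 41 other tested genes within 100 kb of a member, 0 were called by limma and 9 had an unadjusted p under 0.05. Over all genes tested 0.134% were called, so 0 calls is near that share. The 9 genes are a larger share than the 9.96% with an unadjusted p under 0.05 over all genes tested. Why was not tested. The median log2 fold change of the 41 genes was 0.14, with a range from -1.08 to 1.48. Beside the chromosome 11 cluster, where APOA1 and APOC3 are 2678 bases apart, ZPR1 stood at 13.0 and 14.3 FPKM with DMSO and at 15.0 and 18.3 FPKM with SB (log2 fold change 0.26, limma adjusted p 0.762). SIK3, a kinase gene 5451 bases from APOA1, stood at 6.92 and 6.85 FPKM with DMSO and at 8.32 and 8.39 FPKM with SB (0.25, limma adjusted p 0.752), and BUD13 had a log2 fold change of 0.21 (limma adjusted p 0.812).

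Beside APOA2, at a gap of 1592 bases, FCER1G, an immune receptor subunit of myeloid cells, stood at 29.7 and 38.7 FPKM with DMSO and at 79.8 and 94.1 FPKM with SB (log2 fold change 1.33, limma adjusted p 0.144). ADAMTS4, a matrix protease gene, stood at 25.1 and 21.3 FPKM with DMSO and at 12.8 and 8.48 FPKM with SB (-1.08, limma adjusted p 0.264). Near APOE, TOMM40, a mitochondrial import gene, had a log2 fold change of 0.40 (limma adjusted p 0.760), and NECTIN2, an adhesion gene, -0.05 (limma adjusted p 0.987). Near APOM, AIF1, a macrophage gene, stood at 26.7 and 41.1 FPKM with DMSO and at 80.6 and 111 FPKM with SB (log2 fold change 1.48, limma adjusted p 0.208).

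**Figure D5:**
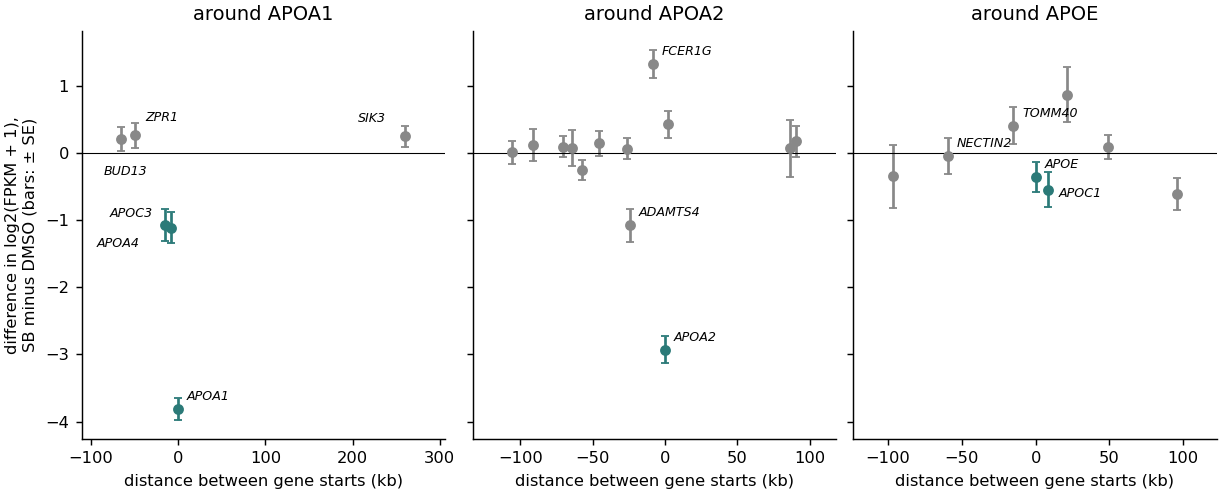
Difference in log2(FPKM + 1), SB minus DMSO, with its SE, against the distance between gene starts in kb, for tested genes around APOA1, APOA2 and APOE (green, apolipoproteins; grey, other genes). The grey points around APOA1 lie between 0.21 and 0.26, and APOA1 at -3.81.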

How the data were processed

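RNA-seq was run and first processed by a service company, and FPKM values (fragments per kilobase, relative to all fragments of a library) were deposited for 58365 rows and 4 libraries. The submitters' processing notes name BWA, Bowtie, RSEM and the build hg19, with no versions or roles, while 95.5% of rows carried the identifier version of GENCODE 29 on GRCh38, 99.8% of these at the same position. Coordinates are therefore 1-based positions on GRCh38. Whether counting used strand is not given in the sources used here. Fragment totals were recovered from the steps of low values of single-exon genes with 1 transcript, 96.0% to 97.0% of which lay within 0.1 of a whole fragment.

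On the log2(FPKM + 1) scale, genes that averaged at least 1 FPKM in at least 1 group were compared, SB minus DMSO, with limma 3.58.1 in R 4.3.3 (empirical Bayes with trend, two-sided, adjusted over 14909 genes, threshold 0.05). The pseudocount understates the change of low genes. The exact permutation test of 2 against 2 libraries cannot go below p = 0.333. The method was tested on simulated data, drawn independently for each library, with changes placed only in more abundant genes. That test does not cover low genes or deviations shared between libraries. The members and gene lists were chosen with earlier results of these data known. The genes named are the members, list genes past the threshold or with the 3 largest changes, tested neighbours within 100 kb of a member (of which examples are printed), the 3 genes most like each of the 3 most abundant members, and defining markers. ALB, HP, TF, HPX, NR2F2, PLTP, CD99 and the overlapping genes were added after their values were seen. Alternatives were another filter, pseudocount and scaling, a replicate block, leaving out each library, and a correction for GC content.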

Additional observations from a re-analysis of the deposited data

How the results depend on the processing

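With 2 libraries a group, the number of genes called was the least steady result. Against 20 genes in the fit described, 0 were called without a filter on low values (2739 genes at an unadjusted p under 0.05), 31 were called with quantile normalization, 114 with the GC correction, and 0 (without DMSO replicate 1, 1168 at an unadjusted p under 0.05) to 14 (without DMSO replicate 2) with 1 library left out.

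Same-numbered libraries deviated together (correlation of their deviations 0.53), and the first principal component, with 47.4% of the variance, separated the replicate numbers. The labels do not say what a number marks and there are only 2 pairs, so the number is not taken as a pairing. With a replicate block 1564 genes were called, and 1680 with the block and the GC correction.

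Calls in the lists are given beside the share of all genes called in the same fit, 10.5% with the block, 0.765% with the GC correction and 11.3% with both. Of 11 receptors tested, calls went from 0 to 2 with the replicate block, 1 with the GC correction and 2 with both. Of 13 lipases and lipid transfer genes calls went from 0 to 5 with the block and 5 with both. Of 19 liver and gut factors, 4 of them tested only through DMSO, calls went from 0 to 3 with the block, 1 with the GC correction and 4 with both. FOXA2, which was tested only through DMSO, was called in 2 of its 12 alternatives. Of 9 secreted proteins of liver and yolk sac, 5 of them tested only through DMSO, calls went from 2 to 7 with the block and 7 with both, to 0 without a filter, and to 0 in each fit with 1 library left out.

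The 8 filtered apolipoproteins were lower with SB in all 100 values over the alternatives. They were chosen on this contrast, and some alternatives, such as the replicate block, return the same fold change. The count is therefore a description and no measure of how firm the direction is. The median log2 fold change of the 8 genes, -1.09, lay between those of APOA4 (-1.07) and APOC3 (-1.11). Both passed the filter only through DMSO and were listed at 0 with SB, so the median reflects their DMSO level and the pseudocount. It was -1.74 with a stricter filter, which kept fewer of the 8 genes, and -2.57 with a pseudocount of 0.1. It was -1.08 with quantile normalization, -1.11 with upper-quartile scaling and -1.56 with values rescaled to a sum of 1000000. With the GC correction, with and without the block, it was -1.04, and with 1 library left out it was -1.10 to -1.05. With the pseudocount of 0.1 APOA4 and APOC3 stood at -3.59 and -3.66 and APOB at -2.14. The log2 ratio of the summed FPKM, SB over DMSO, was -0.82. Over the alternatives run for it, it went from -0.94 without DMSO replicate 2 to -0.68 without DMSO replicate 1. Of the other named genes that were followed over the alternatives NECTIN2 and PECAM1 changed sign, with -0.288 to 0.191 and -0.242 to 0.0289 over the fits with 1 library left out. The cause of these changes was not tested.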
